A study of Mus musculus with 46 samples.

Results

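Neutrophils of mice treated with intravenous immunoglobulin (IVIG) were set against neutrophils of mice treated with phosphate-buffered saline (PBS), using 10 of the 46 libraries in the table of gene counts, 5 from each treatment. The study used mice with an experimental form of mucous membrane pemphigoid, a blistering disease in which autoantibodies bind a laminin of the epithelial basement membrane. Per the labels' protocols the neutrophils were derived from bone marrow, RNA was isolated from them, and libraries were made from polyadenylated RNA with a low-input method. Strain, age, dose and time of treatment are not given in the labels used here, nor is any group without the disease model among these libraries. The 10 titles carry 10 different pairs of a series and an animal number, but 3 of these pairs have the other treatment in another tissue's title, and the labels do not otherwise state that each library is a separate mouse. P-values therefore measure the spread between these libraries.

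The assignment of columns to libraries is inferred. The 46 column names were written in the style of the description field, sorted by byte code and given to the columns in file order, and the columns then named N were taken as the neutrophil libraries. This moved 29 names and changed the treatment of 22 libraries. Of the columns named N as deposited, 8 were also named N after the re-sort, and the treatment was the opposite one for all 8 of them. The other columns that received an N name are PBS 5, deposited under a blood name, and IVIG 5, deposited under a monocyte name. Because the order is inferred, values under the deposited names are given beside the re-sorted ones for the counts of genes and for some of the genes and lists.

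Marker genes could be read for each column without knowing its treatment. S100a8 and S100a9, which code the subunits of the cytosolic protein calprotectin, and Ly6g, a surface protein of mouse neutrophils, were abundant in all 10 columns named neutrophil after the re-sort. In CPM, the count scaled to a common library total, S100a8 stood at 8778 to 24986 and Ly6g at 401 to 823 in these 10 columns. In the monocyte libraries Ly6g reached at most 22.7 CPM and S100a8 at most 2914 CPM. As deposited, 2 columns with a neutrophil name, 1 of each treatment, had 96.3% and 98.3% of their counts in haemoglobin transcripts, and in them S100a8 stood at 3.22 and 10.6 CPM, and Ly6g at 0.0342 and 0.0288 CPM. Tissue markers matched the name in 34 of 34 blood, cell and skin libraries after the re-sort and in 25 of 34 as deposited, and for the neutrophil names in 10 of 10 and 8 of 10. Transcripts of the Y chromosome (Ddx3y, Eif2s3y and Kdm5d, summed) exceeded Xist, the RNA of the inactive X chromosome, only in libraries whose title carries series number 5, in 34 of 34 libraries after the re-sort and in 22 of 34 as deposited. Among the neutrophil libraries this held for 10 of 10 and 7 of 10. The rule was read from these same libraries and not from a label of sex. Some values were near the floor or mixed. A blood library of series 5 after the re-sort had a Y-linked sum of only 1.01 CPM, with Xist at 0. A monocyte library of series 5 held both, at 55.1 CPM of Y-linked transcripts and 16.4 CPM of Xist. Neither check can tell the treatments apart, since series 3 and series 5 each hold libraries of both, so the treatment of all 10 libraries rests on the sort.

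**Figure D1:**
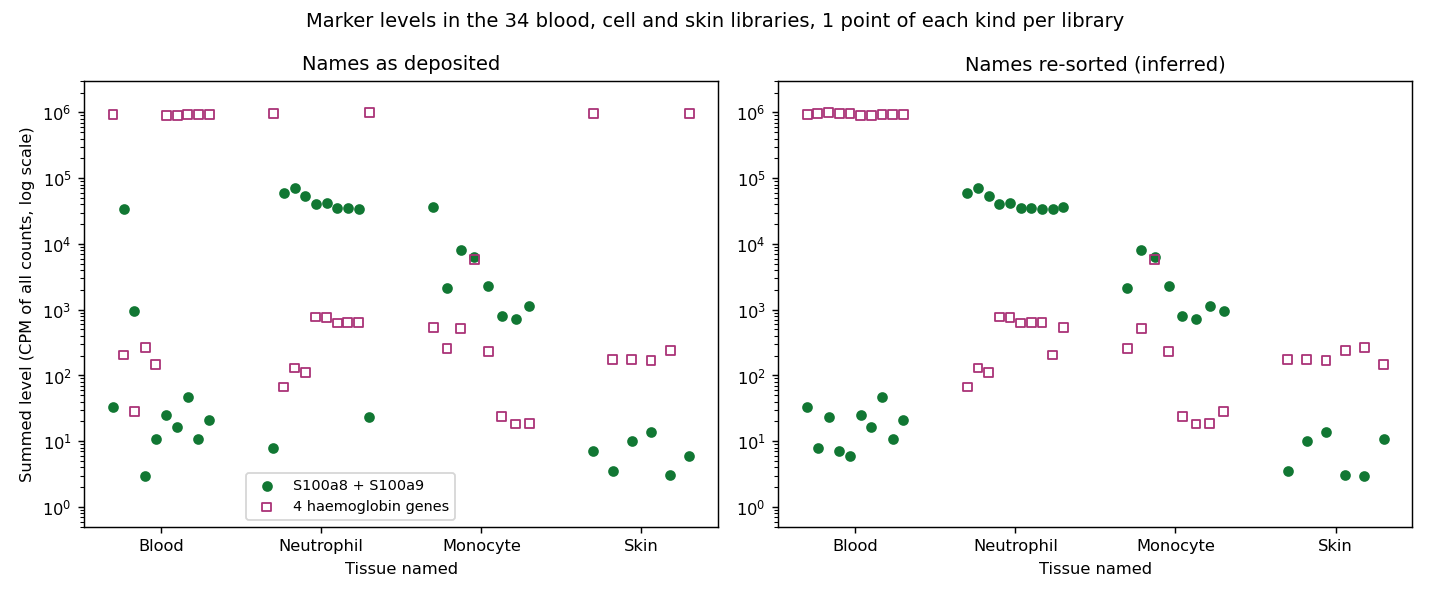
Summed level of S100a8 and S100a9 (green circles) and of 4 haemoglobin genes (open squares), in CPM on a log axis, for each of the 34 blood, cell and skin libraries, grouped by the tissue in the name as deposited (left) and after the re-sort (right). As deposited, 2 columns named neutrophil hold mostly haemoglobin counts. After the re-sort, all 10 neutrophil columns have high calprotectin transcripts.

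The titles also carry a series number and an animal number. PBS 1 and IVIG 1 belong to series 5, PBS 2 to series 2, and the remaining 7 libraries (PBS 3, 4 and 5 and IVIG 2 to 5) to series 3. PBS 1 and IVIG 1 had Y-linked transcripts and the other 8 had Xist, so series 5 and sex cannot be told apart in neutrophils. For PBS 3, IVIG 2 and IVIG 3, a blood or monocyte title with the same series and animal numbers names the other treatment. The 10 libraries held 19784891 to 39014197 estimated counts, with 15102 to 16950 genes at 5 counts or more. Of the markers listed for monocytes, Ly6c2 stood at 853 to 1288 CPM, Csf1r at 155 to 283 CPM and Ccr2 at 166 to 437 CPM. The medians of the monocyte libraries were 927, 390 and 706 CPM. The cell of origin of these transcripts was not tested.

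Neutrophils are short-lived phagocytes that carry receptors for the Fc part of IgG. Activating Fc gamma receptors signal through the common gamma chain (Fcer1g), whereas Fcgr2b is the inhibitory member of the family, and the neonatal receptor Fcgrt protects IgG from degradation. In antibody-mediated blistering disease neutrophils are drawn in by the complement fragment C5a and by leukotriene B4, and release reactive oxygen and granule proteases. IVIG is pooled IgG used against autoimmune disease, and Fc receptors, complement and cytokines are among the targets discussed for it. Gene groups are taken in the order of these roles. Levels are CPM with trimmed mean (TMM) scaling, and a group's 5 libraries are summarised as mean ± SD; changes are log2 changes, IVIG minus PBS, ± SE, and adjusted p-values are from edgeR's quasi-likelihood test over all genes tested.

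No gene passed an adjusted p of 0.05 in the 14365 genes tested with edgeR, 0% of the background. At an unadjusted p under 0.05 there were 272 genes (1.89%), against 718 that make up 5% of the genes tested. Of these, 169 were higher with IVIG (1.18%) and 103 were lower (0.717%). The 5 IVIG libraries did not overlap the 5 PBS libraries in 35 genes (0.244%), with 18 above (0.125%) and 17 below (0.118%). The smallest adjusted p was 0.998, and the median log2 change over all genes was 0.01. Voom with quality weights also called 0 genes, with 1051 of 14365 at an unadjusted p under 0.05, above the 718 that make up 5%. DESeq2 called 1, the predicted gene Gm7332, which stood at 12.5 CPM in IVIG 2 and 1.23 CPM in IVIG 5 and at 0 in the other 8 libraries. Without IVIG 1 there were 0 calls and 1348 of 14565 genes at an unadjusted p under 0.05. Series 2 and 5 then hold only PBS libraries, so treatment and series number are partly mixed in that fit. Without PBS 4 there were 0 calls and 732 of 14605 at that limit. With the names as deposited, 0 of 14033 genes passed (0%) and 73 had an unadjusted p under 0.05 (0.52%), against 702 that make up 5%. DESeq2 called 0 there with 246 at that limit, and voom called 0 with 1980 of 14033. The coefficient of biological variation was 0.332 after the re-sort and 0.606 as deposited.

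The size of change that could have been detected was checked in counts simulated from the 10 libraries. Of 200 genes changed 2-fold, 69.5% were recovered, as were 99% of 200 changed 4-fold and 20% of 200 changed 1.5-fold. The changed genes were taken only from those at a mean of 5 CPM or more. Each gene was drawn on its own, without differences shared between genes such as those by series number. These shares may therefore not carry over to the real data, which also holds for the simulations of the comparisons with monocytes and blood below. In the real data, the median 95% interval of a log2 change reached 0.379 to either side for genes at 100 CPM or more and 1.01 for genes under 1 CPM. These are medians, and the interval of a single gene can be narrower or wider. A change smaller than the half-width of its own gene's interval could not be told from 0 here. The intervals are not adjusted for the number of genes tested, so a larger change could also fail to pass the adjusted limit. In bulk RNA a smaller share of a cell type and less RNA per cell cannot be told apart, which holds for every level below.

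Genes that define mature neutrophils did not differ between IVIG and PBS beyond the spread between libraries. S100a8 stood at 22568, 18875, 12415, 9232 and 9280 CPM in PBS 1 to 5 and at 29104, 14757, 10605, 8888 and 8512 CPM in IVIG 1 to 5. The highest 3 values belong to the libraries of series 5 and 2, in both treatments, and the groups overlap throughout. The log2 change was -0.01 ± 0.39 with a 95% interval from -0.86 to 0.84 (adjusted p = 1 in edgeR), and 0.01 with the deposited names. S100a9 changed by 0.05 ± 0.28 and Ly6g by 0.11 ± 0.25, from 522 ± 111 to 564 ± 231 CPM. Csf3r, the receptor for granulocyte colony-stimulating factor, was at -0.35 ± 0.34, and Itgam, the integrin chain CD11b, at -0.21 ± 0.25. Of 15 mature neutrophil markers, 0 rose and 0 fell, with a median change of 0.04 beside 0.01 over all genes.

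Fc gamma receptors differed by less than the spread between libraries. Fcgr2b (chromosome 1, 170958617 to 170976547, minus strand, GRCm38), the inhibitory receptor, was at 83.6, 86.2, 82.4, 84.3 and 90.0 CPM in PBS 1 to 5. In IVIG 1 to 5 it was at 83.5, 78.6, 90.4, 80.7 and 82.9 CPM. All 10 libraries, of both treatments and all 3 series numbers, lie within this narrow range. The means were 85.3 ± 2.97 CPM with PBS and 83.2 ± 4.44 CPM with IVIG, a log2 change of -0.04 ± 0.09 (n = 5 and 5). Its 95% interval reached from 0.851-fold to 1.12-fold, and the change with deposited names was 0.09.

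Of the activating receptors, Fcgr3 (chromosome 1, 171051174 to 171064935), which binds IgG complexes, was at 355, 300, 230, 153 and 210 CPM in PBS 1 to 5. It was at 418, 134, 209, 142 and 128 CPM in IVIG 1 to 5. The libraries of series 2 and 5 were again the highest ones, and the groups overlap. The log2 change was -0.28 ± 0.34 with an interval from -1.02 to 0.47 (adjusted p = 0.998 in edgeR), and 0.21 as deposited. Without IVIG 1 it was -0.72, and within the 7 libraries of series 3 it was -0.37. With series number as a covariate it was -0.23. Without IVIG 1, series 2 and 5 hold only PBS libraries, so treatment and series number are partly mixed in the value of -0.72. Fcgr4, a receptor for IgG2 subclasses found on mouse myeloid cells, was at -0.05 ± 0.32, from 49.8 ± 16.0 to 48.2 ± 27.0 CPM. Fcgr1, the high-affinity receptor, was low at 12.6 ± 3.73 and 12.5 ± 6.89 CPM and was at -0.01 ± 0.35. These receptor genes are related in sequence, and how reads shared between them were divided is not given in the sources used here.

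The common gamma chain Fcer1g was at 881 ± 53.4 CPM with PBS and 938 ± 180 CPM with IVIG, a change of 0.09 ± 0.15. Fcgrt, the neonatal receptor, had the smallest p of this group together with Plcg2 and Lyn. It was at 11.8, 10.2, 17.3, 16.1 and 18.8 CPM in PBS 1 to 5 and at 9.62, 22.1, 21.1, 18.7 and 26.2 CPM in IVIG 1 to 5. Within series 3 the IVIG libraries ranged from 18.7 to 26.2 CPM and the PBS libraries from 16.1 to 18.8 CPM, while those of series 2 and 5 were the lowest. The change was 0.40 ± 0.26 with an interval from -0.16 to 0.96 (adjusted p = 0.998 in edgeR), and -0.65 as deposited. It was 0.34 in series 3 alone and 0.20 with series number as a covariate. Plcg2, a phospholipase downstream of Fc receptors, was at -0.15 ± 0.12, and the kinase gene Lyn at -0.22 ± 0.19. The list of Fc gamma receptors with their signalling partners had 16 tested genes: none rose or fell, 5 were above 0 and 11 below, and the median was -0.04.

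**Figure D2:**
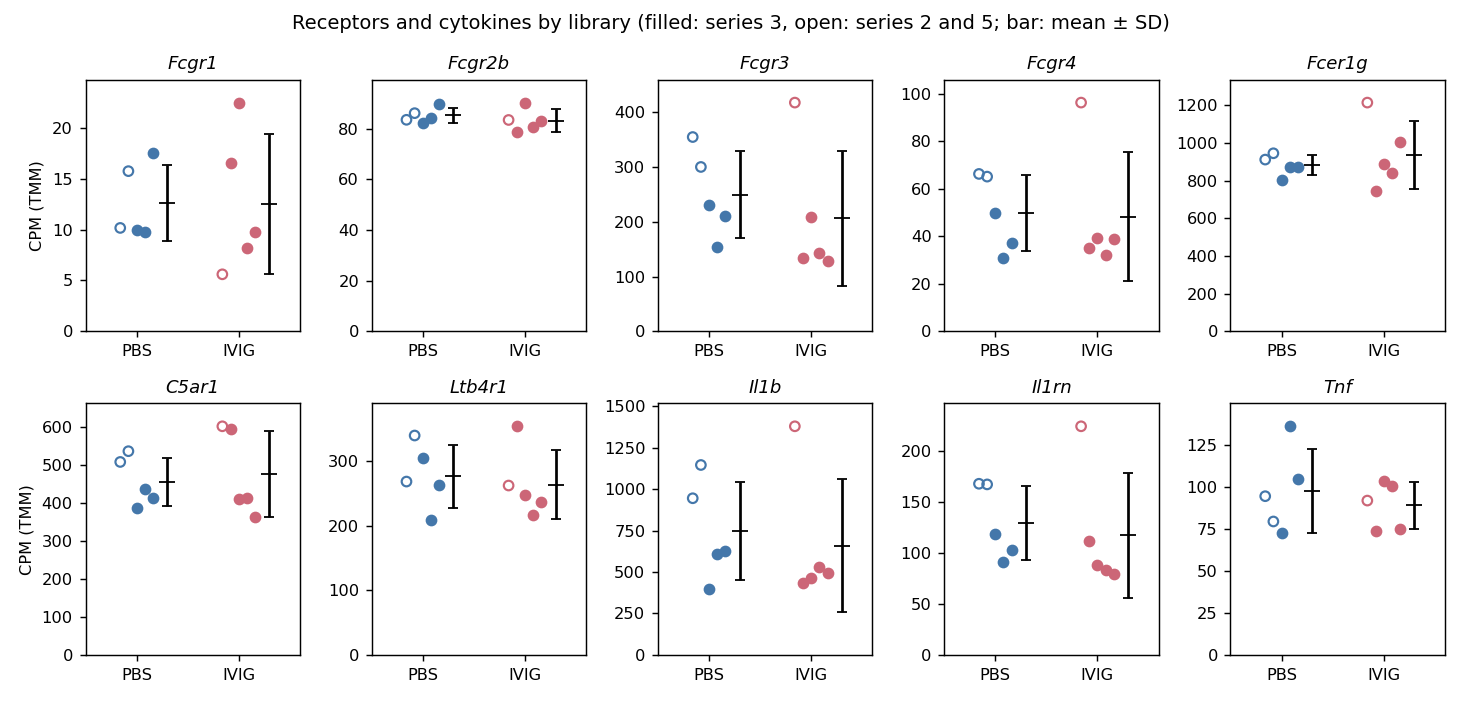
CPM with TMM scaling of 10 receptor and cytokine genes in each neutrophil library, PBS in blue and IVIG in red, filled for title series 3 and open for series 2 and 5; bars give the mean ± SD of 5 libraries. Fcgr2b lies between 78.6 and 90.4 CPM in all 10 libraries, whereas for Fcgr3 and Il1b the open points are the highest ones in both treatments.

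Receptors for the signals that draw neutrophils into tissue showed no difference beyond the spread. C5ar1, the receptor for C5a, was at 508, 536, 386, 435 and 414 CPM in PBS 1 to 5 and at 602, 593, 410, 414 and 363 CPM in IVIG 1 to 5. IVIG 1 and IVIG 2 were high and the other IVIG libraries lay within or just under the PBS range. Its change was 0.06 ± 0.17 with an interval from -0.32 to 0.44, and -0.08 as deposited. Ltb4r1, the high-affinity receptor for leukotriene B4, was at -0.07 ± 0.17, from 276 ± 48.8 to 263 ± 53.1 CPM. Alox5, the enzyme that starts leukotriene synthesis, was at -0.09 ± 0.25. Cxcr2, the receptor for neutrophil-attracting chemokines, was at -0.35 ± 0.40, and Cxcr4, which holds neutrophils in the marrow, at 0.27 ± 0.18. Of 10 chemoattractant receptors, 11 complement receptors and regulators and 12 leukotriene and prostaglandin genes tested, 0 rose and 0 fell, with medians of -0.14, -0.13 and -0.05. Ackr2, a scavenging receptor for chemokines, had no count in any of the 10 libraries and was not tested.

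Cytokine genes did not pass either. Il1b (chromosome 2, 129364570 to 129371139), which codes interleukin 1 beta, was at 945, 1146, 401, 611 and 627 CPM in PBS 1 to 5. In IVIG 1 to 5 it was at 1380, 433, 467, 528 and 494 CPM. The 3 libraries of series 2 and 5 were all above the 7 of series 3. The log2 change with IVIG was -0.18 ± 0.37 with an interval from -0.97 to 0.62, 0.17 as deposited, and -0.65 without IVIG 1. It was -0.02 with series number as a covariate. Without IVIG 1, series 2 and 5 hold only PBS libraries, so treatment and series number are partly mixed in the value of -0.65. Il1rn, the natural antagonist of interleukin 1, was at -0.14 ± 0.30 and Tnf at -0.13 ± 0.18, from 97.6 ± 25.0 to 89.1 ± 14.0 CPM. Tlr4, the endotoxin receptor, was at 17.5 ± 6.53 CPM with PBS and 12.6 ± 4.47 CPM with IVIG, a log2 change of -0.48 ± 0.30. Of 11 interleukin 1 family genes and 18 cytokines and NF-kB targets tested, 0 rose and 0 fell. Interferon-stimulated genes had 22 members tested, of which 0 rose and 0 fell, with 6 above 0 and 16 below and a median of -0.11; with series number as a covariate that median was 0.13. Ifit2 was at -0.34 ± 0.21 and Oasl1 at 0.46 ± 0.30.

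Granule and oxidase genes also did not pass. Mpo, which codes myeloperoxidase of the primary granules made in promyelocytes, was at 182, 273, 516, 670 and 705 CPM in PBS 1 to 5 and at 117, 351, 459, 736 and 686 CPM in IVIG 1 to 5. The lowest 3 libraries are those of series 2 and 5. Its change was 0.00 ± 0.47 and the interval reached from -1.02 to 1.03. Elane, neutrophil elastase, was at -0.16 ± 0.36. Ltf, lactoferrin of the secondary granules, was at 18412 ± 1984 CPM with PBS and 21006 ± 5106 CPM with IVIG, a change of 0.19 ± 0.21. Camp, the cathelicidin gene, was at 0.27 ± 0.19 and Chil3 at -0.30 ± 0.18. Cybb, the catalytic subunit of the NADPH oxidase, was at -0.14 ± 0.15 and its partner Cyba at 0.15 ± 0.13. Of 7 primary granule genes, 18 secondary and tertiary granule genes and 8 oxidase subunits, 0 rose and 0 fell, with medians of 0.00, -0.07 and -0.07.

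**Figure D3:**
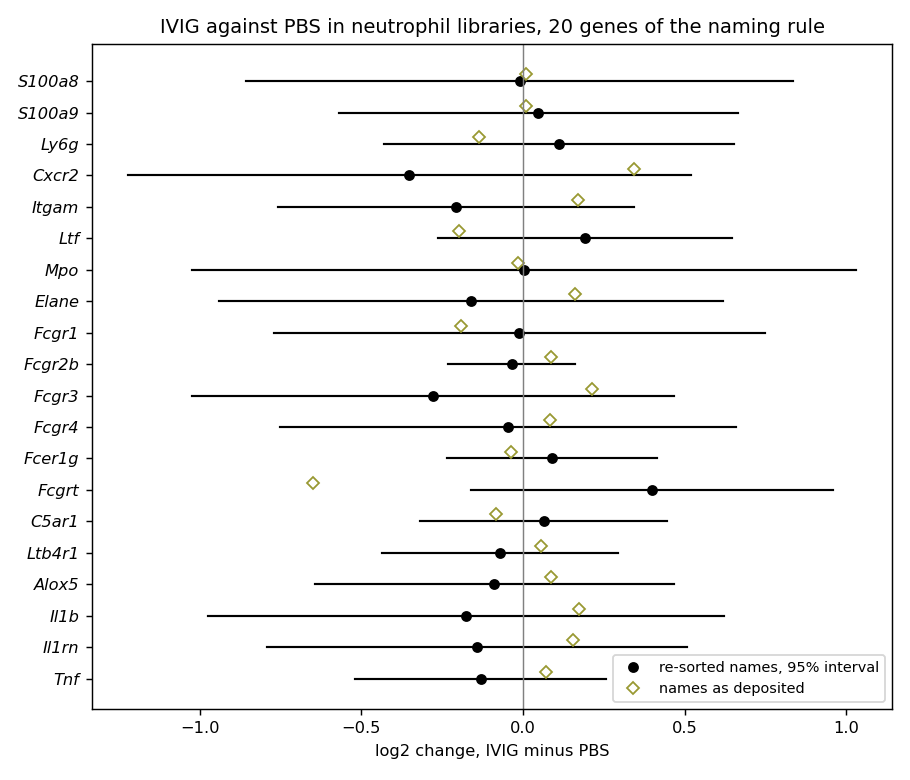
Log2 change, IVIG minus PBS, of 20 genes in neutrophil libraries: black points with 95% intervals after the re-sort, open diamonds for the names as deposited. Every interval includes 0; the one of Fcgr2b, from -0.23 to 0.16, is among the narrow ones.

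Some gene lists were shifted in one direction without any member passing. The 13 mitochondrially coded genes were all above 0, with a median log2 change of 0.49 and changes from 0.40 to 0.75. Their summed level was 12702, 9400, 5989, 20539 and 9190 CPM in PBS 1 to 5 and 16902, 3027, 9086, 24342 and 27506 CPM in IVIG 1 to 5. PBS 4, IVIG 4 and IVIG 5 were the highest and IVIG 2 the lowest of all, so the groups overlap widely. These genes are cut from long shared transcripts and are not independent of each other. Their median was 0.25 without IVIG 5 and 0.83 without PBS 4. As deposited it was 0.42, with 11 of 13 above 0, although 8 of the columns carry the opposite treatment there. Of 22 cytosolic ribosomal protein genes, 21 were above 0 with a median of 0.22. Of 16 immediate early genes, 14 were above 0 with a median of 0.20, and 0 passed in either list. Both medians were below 0 as deposited, at -0.20 and -0.29. There, 8 of the columns are the same ones with the opposite treatment, so a change of sign is largely built in. The immediate early median was 0.00 without the 3 libraries whose numbers contradict, 0.05 in series 3 alone and 0.06 with series number as a covariate, and 0.10 to 0.41 when 1 library was left out. The ribosomal median was 0.08 with that covariate. Over all genes, 51.5% of changes were above 0.

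Markers of other cells varied between libraries in the same way. The 13 erythroid genes were all above 0 with a median of 0.60, which was 0.31 without PBS 1, 1.18 without PBS 3 and 0.30 in series 3 alone, and their sum ranged from 107 to 1629 CPM with PBS and from 192 to 1535 CPM with IVIG. Of 9 tested eosinophil, basophil and mast cell markers 7 were above 0, with a median of 1.28, or 0.65 without IVIG 4 and 0.72 with series number as a covariate. Mcpt8, a protease of basophils, was at 1.38, 2.92, 7.94, 22.1 and 17.0 CPM in PBS 1 to 5 and at 0.606, 5.87, 15.9, 66.3 and 63.3 CPM in IVIG 1 to 5. IVIG 4 and IVIG 5 were above every PBS library and IVIG 1 was below all of them, and the change was 1.57 ± 0.99 (adjusted p = 0.998 in edgeR). The sum of this list was 225 CPM in IVIG 4, 195 CPM in IVIG 5 and at most 95.1 CPM elsewhere. Siglech, a marker of plasmacytoid dendritic cells, was the only member of any list with an unadjusted p under 0.05, at 1.07 ± 0.49. Over all genes tested, 1.89% were under that limit. Ccr9, from the same list of dendritic cell markers, went the other way, at -0.76. Of the 12 markers tested in that list, 10 were above 0 and 2 below, with a median of 0.47. As deposited, the median was -0.55 for dendritic cell markers and -0.82 for eosinophil, basophil and mast cell markers. It was 0.14 for erythroid genes there. B and plasma cell markers had a median of 0.04 after the re-sort and -1.37 as deposited. Monocyte and macrophage markers summed to 2100 to 3811 CPM with IVIG and 2642 to 3993 CPM with PBS. T and NK cell markers summed to 25.5 to 60.0 CPM and 30.9 to 57.9 CPM, and B and plasma cell markers to 1460 to 1867 CPM and 1213 to 2932 CPM. Whether these cells contribute to any change named above was not tested.

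The 10 genes with the smallest p are given as a description, since none passed and all had an adjusted p of 0.998 in edgeR. Abca2 (chromosome 2, 25428703 to 25448540), a lipid transporter, had the smallest p. It was at 30.0, 25.2, 29.3, 19.9 and 28.8 CPM in PBS 1 to 5 and at 16.1, 19.6, 18.3, 15.3 and 17.6 CPM in IVIG 1 to 5. All IVIG libraries were below all PBS libraries, by a small gap between IVIG 2 and PBS 4. The log2 change was -0.62 ± 0.14 with an interval from -0.93 to -0.31, and 0.27 ± 0.65 as deposited.

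Gm15441 (chromosome 3, 96555765 to 96566801, minus strand) is annotated as an antisense gene. It was at 0.866, 1.01, 0.969, 1.07 and 1.16 CPM in PBS 1 to 5 and at 2.16, 2.40, 1.52, 1.81 and 2.16 CPM in IVIG 1 to 5, a change of 0.99 ± 0.23. The groups do not overlap. It lies across Txnip (96557957 to 96561883) on the opposite strand, which codes an inhibitor of thioredoxin and was at 0.11 ± 0.214. Use of strand in the counting is not given in the sources used here, so reads of Gm15441 and Txnip cannot be told apart with certainty.

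Mir6240, a microRNA gene, was also above all PBS libraries in every IVIG library. Its mature sequence in RefSeq (GRCm38.p6, chr5:114851973-114851998, plus strand) is shown because it is the only microRNA among the named genes, with the seed, bases 2 to 8, in capitals.
mmu-miR-6240: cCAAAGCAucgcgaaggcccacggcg
Mir6240 was at 0.257, 0.243, 0.242, 0.334 and 0.136 CPM in PBS 1 to 5 and at 0.682, 0.628, 0.495, 0.602 and 0.522 CPM in IVIG 1 to 5. The change was 1.26 ± 0.32, and -1.10 ± 0.35 as deposited, where the treatment of 8 of the columns is the opposite. These libraries were made from polyadenylated RNA, so the counts of a gene 117 bases long are not a measure of the mature microRNA.

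Among the other 7 genes, Pfdn5, a prefoldin subunit, was at 88.4 ± 11.9 CPM with PBS and 123 ± 17.1 CPM with IVIG, a change of 0.47 ± 0.13 with no overlap. It shares part of its locus with Myg1 on the same strand. Zfp808, a zinc finger gene, was at -0.98 ± 0.28 and H2-Q5, a class I gene annotated as a polymorphic pseudogene, at -0.49 ± 0.14, both with no overlap. Both have close relatives in the genome, and the division of shared reads is uncertain. Celsr2, a cadherin, was at -2.26 ± 0.56, and PBS 5 alone held 7.95 CPM against 1.17 to 3.02 CPM in the other PBS libraries. Cldn12, a claudin, was at 1.76 ± 0.45, with IVIG 3 at 0.858 CPM, below every PBS library. Pax8 was at 0.91 ± 0.26. Phlda3, a target of p53, was at 0.14 ± 0.112 CPM and 0.579 ± 0.25 CPM, a change of 2.00 ± 0.52, with PBS 4 above IVIG 1. As deposited, 6 of the 9 tested had the opposite direction and Phlda3 was not tested. With 8 of the columns carrying the opposite treatment there, such a change of direction is largely built in.

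**Figure D4:**
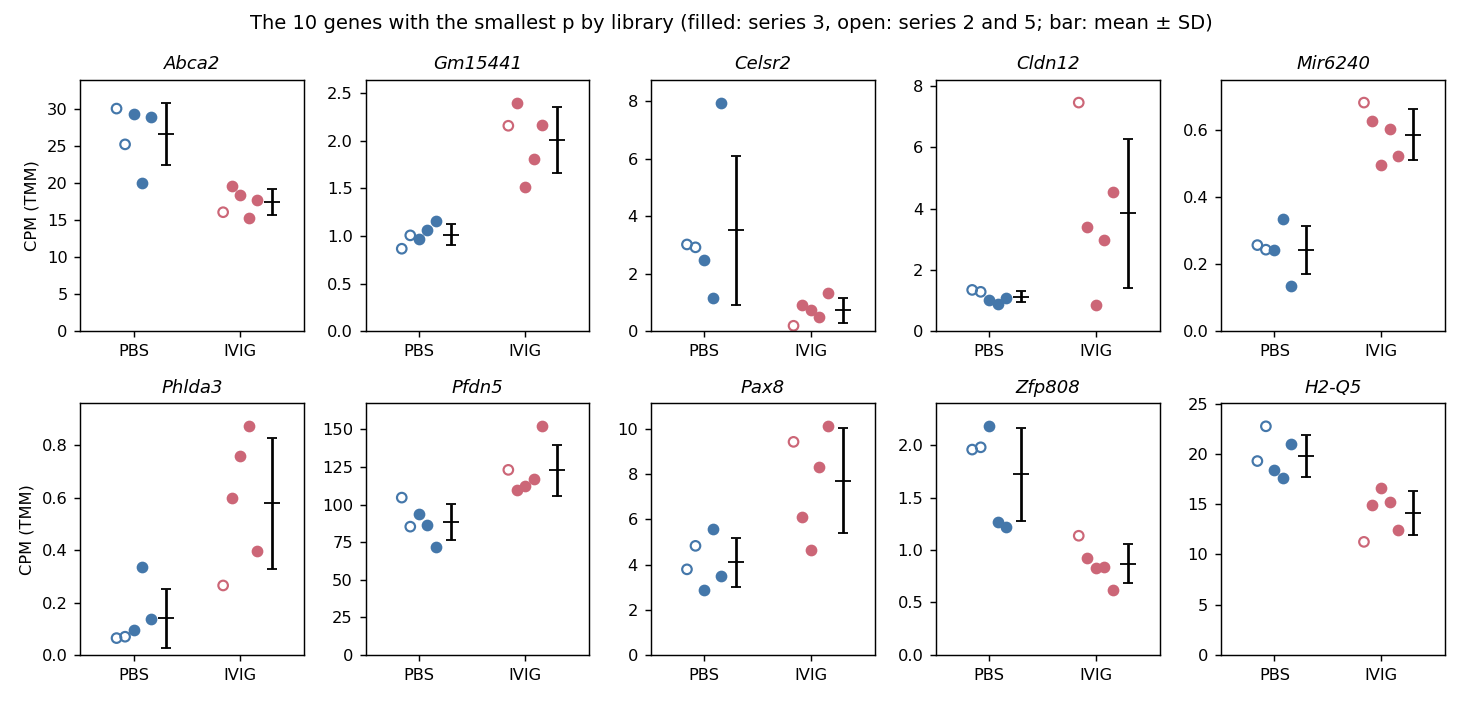
CPM with TMM scaling of the 10 genes with the smallest p in each neutrophil library, PBS in blue and IVIG in red, filled for title series 3 and open for series 2 and 5; bars give the mean ± SD of 5 libraries. Abca2, Gm15441, Mir6240, Pfdn5, Zfp808 and H2-Q5 have no overlap between treatments, at an adjusted p of 0.998 each.

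The main separation of the 10 libraries followed the series number in the titles. The first principal component held 44.3% of the variance and placed the libraries of series 2 and 5 at -76.5 to -41.5 and those of series 3 at 3.03 to 43.9. A comparison of series 3 (7 libraries) with series 2 and 5 (3 libraries), with treatment as a covariate, was added after this was seen. The grouping was taken from the separation of the same libraries, so the counts that follow describe that separation and are not an independent test of it. In it, 2548 of 15107 genes were higher in series 3 (16.9%) and 2660 lower (17.6%) at an adjusted p under 0.05 in edgeR. With library totals in place of TMM scaling, the split was 3833 higher (25.4%) and 1307 lower (8.65%), and the median over all genes moved by 0.198. Without IVIG 1, 661 genes were higher (4.26%) and 426 lower (2.74%). Series 2 and 5 then hold only PBS 1 and PBS 2, so the series difference is estimated from the PBS libraries alone. The lower count therefore does not measure the influence of IVIG 1 by itself. Restricted to the 8 libraries without Y-linked transcripts, in which series 2 is a single library assumed to vary like the others, 0 genes passed and 2399 had an unadjusted p under 0.05. Sex and title series cannot be told apart for PBS 1 and IVIG 1.

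Mature neutrophil genes were lower and primary granule genes higher in series 3. Over all genes, 17.6% were lower and 16.9% higher. Of 15 mature markers, 13 were lower and 0 higher, with a median of -0.89. S100a8 was at -1.24 ± 0.19, Cxcr2 at -1.32 ± 0.19 and Csf3r at -1.12 ± 0.17. All 7 primary granule genes were higher, with a median of 1.19, among them Mpo at 1.71 ± 0.28 and Elane at 1.30 ± 0.18. Secondary and tertiary granule genes had 13 of 18 lower and 0 higher, and proliferation genes 11 of 19 higher and 0 lower. With library totals, 8.65% of all genes were lower and 25.4% higher. Lower were then 12 of 15 mature markers and 9 of 18 secondary and tertiary granule genes. Higher were 7 of 7 primary granule genes and 16 of 19 proliferation genes. Without IVIG 1, the counts were 6 of 15 lower for mature markers and 3 of 7 higher for primary granule genes. They were 3 of 18 lower for later granule genes and 7 of 19 higher for proliferation genes. Over all genes in that fit, 2.74% were lower and 4.26% higher. The medians in that fit were -0.67 for mature markers and 0.98 for primary granule genes. Erythroid genes were higher in series 3 in 13 of 13, with a median of 3.00. Their sum was 403 to 1629 CPM in series 3 and 107 to 237 CPM in series 2 and 5, and their part in these differences was not tested.

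Of 16 Fc gamma receptor and signalling genes 8 were lower in series 3 and 1 higher, where 17.6% of all genes were lower and 16.9% higher. With library totals, 5 were lower and 1 higher. Of 19 cytokines and NF-kB targets 6 were lower and 2 higher, with a median of -0.01; with library totals 4 were lower and 4 higher, and without IVIG 1 there was 1 in each direction. Fcgr3 and Fcgr4 were each at -1.08, with SEs of 0.19 and 0.16, Fcgrt at 0.82 ± 0.16 and Il1b at -1.23 ± 0.17. Without IVIG 1, Fcgr3 was at -0.75 with an adjusted p of 0.073 in edgeR, 3 of the 16 genes were lower and 0 higher. Fcgr2b did not pass, at -0.04 ± 0.09 (adjusted p = 0.73 in edgeR), the same size as with IVIG. Chemoattractant receptors had 7 of 10 lower (3 of 10 without IVIG 1) and heat shock genes 7 of 9 higher (3 of 9). With library totals these were 5 of 10 and 7 of 9. Mitochondrially coded genes had 0 of 13 called in either direction.

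**Figure D5:**
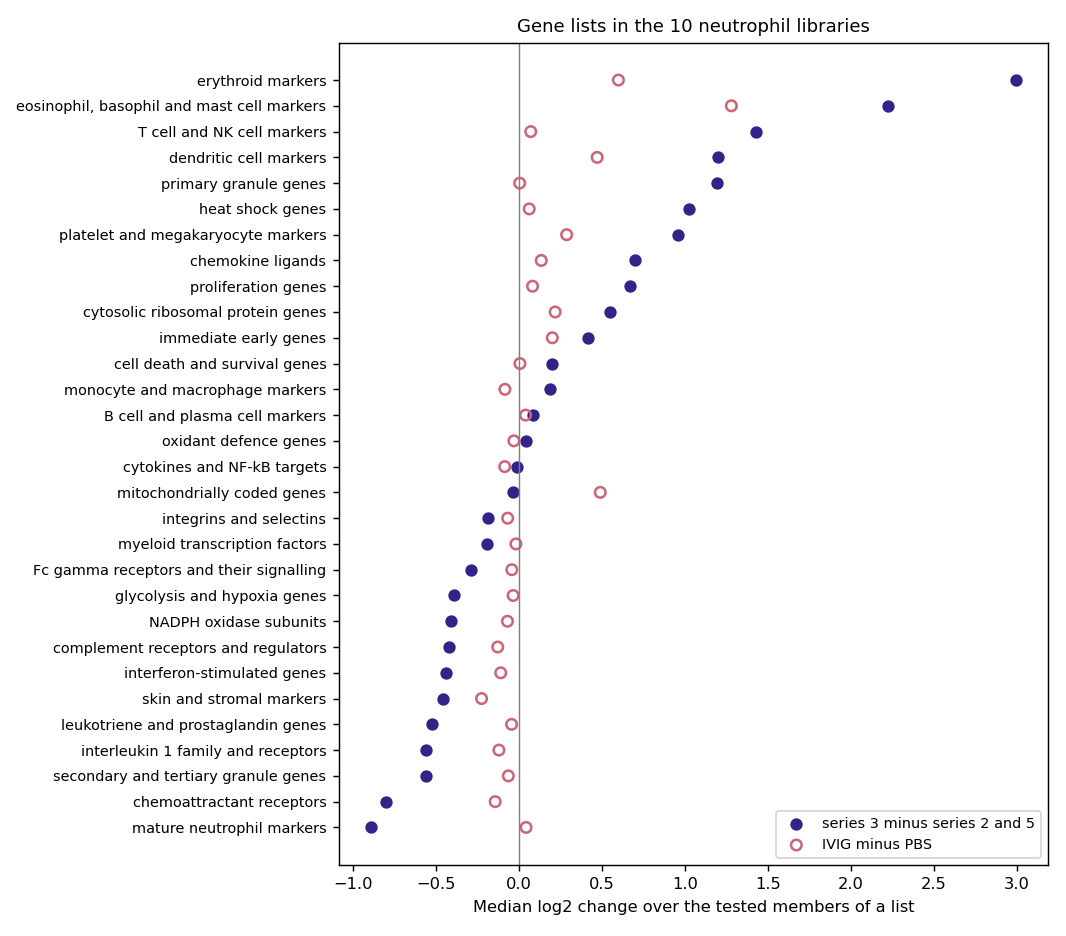
Median log2 change over the tested members of 30 gene lists in the 10 neutrophil libraries: filled points for series 3 minus series 2 and 5, open points for IVIG minus PBS. Mature neutrophil markers lie at -0.89 and 0.04 and primary granule genes at 1.19 and 0.00; mitochondrially coded genes are further from 0 with IVIG, at 0.49, than by series.

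The change with IVIG in neutrophils was set against that in monocytes and in whole blood, in joint fits of the re-sorted libraries. Of the 10 neutrophil titles, 9 share their series and animal numbers with a blood title, 3 of these with the other treatment, and 4 with a monocyte title, 1 of these with the other treatment. The fits took all libraries as independent; limma voom with these numbers as a block called 0 genes in both comparisons, as it did without the block. Against monocytes (3 IVIG and 5 PBS libraries), 0 of 15994 genes passed in edgeR (0%) and 1515 had an unadjusted p under 0.05 (9.47%), against 800 that make up 5%. With the deposited names, 0 passed and 684 of 15991 had an unadjusted p under 0.05 (4.28%). The monocyte libraries differed widely in the genes detected, with 8984 to 16378 at 5 counts or more. The smallest adjusted p was 0.339, shared by Tinagl1 (-5.12 ± 0.97), Kcnh7 (-3.03 ± 0.60), Cd3g (-8.42 ± 1.69) and Cstdc5 (-8.69 ± 1.81) among others. For these 4, the change within neutrophils alone was near 0 or could not be tested: it was 0.03 ± 0.22 for Tinagl1, -0.19 ± 0.19 for Kcnh7 and 0.11 ± 0.42 for Cstdc5, and Cd3g, a T cell receptor chain, was under the filter. The difference was 0.12 ± 0.34 for Fcgr2b, 0.02 ± 0.59 for Fcgr3 and -1.57 ± 1.08 for S100a8. All 16 immediate early genes were above 0 in this difference, with a median of 1.26 beside 0.13 over all genes. Of these, 6 had an unadjusted p under 0.05 and 0 passed the adjusted limit. Other lists were also one-sided. All 13 mitochondrially coded genes were below 0 with a median of -1.89. Below 0 were also 13 of 15 mature neutrophil markers (median -1.48) and 16 of 18 secondary and tertiary granule genes (median -0.84). Series number was not in this fit and was spread unevenly over the monocyte treatments. Monocyte IVIG 1 and 2 and PBS 1 and 2 belong to series 5, and IVIG 3 and PBS 3 to 5 to series 2 or 3. S100a8 was at 736 to 2914 CPM in the monocyte libraries of series 5 and at 256 to 411 CPM in the others. The part of series number in these differences was not tested. This fit recovered 37.5% of simulated 4-fold differences and 2.5% of 2-fold ones.

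Against whole blood (5 and 5 libraries), 1 of 14855 genes passed in edgeR (0.00673%) and 826 had an unadjusted p under 0.05 (5.56%), against 743 that make up 5%. The gene was Gm21981, at -9.55 ± 1.51 with an adjusted p of 0.0304. In blood it stood at 7.50, 2.62, 5.58, 0 and 8.57 CPM with IVIG and at 0.031, 0, 0, 0 and 0.029 CPM with PBS. In neutrophils it lay between 0.24 and 0.923 CPM in all 10 libraries, so the difference lies in the blood libraries, and its fitted size depends on the values at 0. Gm21981 passed in 2 of 10 fits that left out a neutrophil library, and 0 genes passed with the deposited names. Phlda3 followed, at 3.08 ± 0.60 (adjusted p = 0.178 in edgeR), and passed without PBS 4. The difference from blood was 0.71 ± 0.28 for Fcgr2b (adjusted p = 0.845 in edgeR), 0.58 ± 0.55 for Fcgr3 and 0.40 ± 0.59 for C5ar1. In blood, 89.2% to 98.3% of counts were haemoglobin, which leaves few counts for other genes there, and the fit recovered 80% of simulated 4-fold differences and 16.5% of 2-fold ones.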

How the data were processed

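RNA was sequenced from 46 mouse libraries, and the 10 named neutrophil after the re-sort were analysed here, with the monocyte and blood libraries for comparison. The deposited table of 46264 gene symbols holds estimated counts, a length-scaled form of TPM, made with kallisto 0.46.1 on GRCm38 per the submitters' processing notes; the step from transcripts to genes, the use of strand and any filter are not given in the sources used here. Estimated counts were rounded to whole numbers. Treatments were compared in R 4.3.3 with edgeR 4.0.16 (quasi-likelihood F tests after TMM scaling). Genes were filtered with filterByExpr at a minimum count of 10. P-values were adjusted by Benjamini and Hochberg across the tested genes, with a limit of 0.05. An SE is the absolute log2 change over the root of its F statistic, and intervals are 95% intervals. "Rose" and "fell" are used of genes past the adjusted limit.

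Groups follow the condition field and the title; the treatment field differs from both and was not used. The 30 gene lists (402 genes, 398 in the table), the members and the comparisons were chosen with earlier results of these data known. Named genes are the 10 with the smallest p where fewer than 10 pass, the 3 smallest-p members per list, 20 fixed genes, and the 5 with the smallest p in each other comparison; Gm7332 and Ackr2 were named after their values were seen, as was Txnip. Results on withheld genes are not reported here. Other alternatives were DESeq2 1.42.0, voom of limma 3.58.1, other scaling and filters, title series as a covariate or subset, leaving out libraries, and, in the joint fits, series and animal numbers as a block (duplicateCorrelation). The procedure was tested on simulated data. No 2 of the 45 pairs of neutrophil libraries were identical. For gene positions, 132 of 133 symbols were found in GENCODE vM21 (GRCm38). The 19784891 to 39014197 counts per neutrophil library set the precision, and counts without molecular identifiers are not independent molecules.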

Additional observations from a re-analysis of the deposited data

Results flagged for a closer look

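In 25 of 250 groups of 5 libraries (125 named genes, 2 treatments), 1 library stood apart from the other 4 by Dixon's test at its 95% limit; chance alone flags about 1 in 20 groups. IVIG 1, the only IVIG library of title series 5, was that library in 14 of them. With IVIG 1 high, in CPM, were Csf3r at 2150 (others 773 to 854), Cxcr2 at 735 (213 to 270), Itgam at 1740 (754 to 1000), S100a9 at 53800 (24000 to 27400), Fcgr3 at 418 (128 to 209), Fcgr4 at 96.2 (32 to 39.2), Il1b at 1380 (433 to 528), Il1rn at 224 (79.4 to 111), Il1rap at 18.4 (6.71 to 8.82), Hvcn1 at 185 (121 to 139), Cxcl12 at 6.17 (0.409 to 1.72) and Tinagl1 at 129 (59.8 to 67.0). It was low for Hsp90ab1 at 300 (595 to 712) and Cd59a at 0.341 (3.40 to 4.33).

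Single other libraries stood apart in the remaining 11 groups. PBS 2 held 12.1 CPM of Cxcl12 (others 1.09 to 2.89) and 1780 CPM of the immunoglobulin gene Ighm (307 to 383), and IVIG 5 held 701 CPM of Ighm (271 to 350). PBS 4 held 536 CPM of mt-Nd6 (139 to 225), 2380 CPM of Ier2 (1420 to 1650), 2.00 CPM of Krt10 (0.436 to 0.833) and 0.334 CPM of Phlda3 (0.0642 to 0.136). PBS 3 held 85.1 CPM of the heat shock gene Hspa1b (3.58 to 12.5), PBS 5 held 7.95 CPM of Celsr2 (1.17 to 3.02), IVIG 3 held 68.0 CPM of Cd68 (37.9 to 46.6), and IVIG 5 held 4.52 CPM of Ifit2 (7.23 to 7.59).

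The change with IVIG differed between neutrophils and blood for Gm21981, by -9.55 on the log2 scale in the joint fit (edgeR adjusted p = 0.0304), with 4 of 5 blood IVIG libraries at 2.62 CPM or more.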

How the results depend on the processing

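No result changed direction while called. The count of 0 genes for IVIG against PBS held under other scaling, filters, an adjusted p limit of 0.1, series number or Y-linked transcripts as a covariate, series 3 alone, without the 3 libraries whose numbers contradict, and without each library (0 to 0). Genes at an unadjusted p under 0.05 numbered 163 to 1348 when 1 library was left out and 127 with the filter at 5 CPM. DESeq2 called 1. As deposited it was 0 throughout. In the 8 columns named neutrophil in both orders, 0 genes passed and 134 had an unadjusted p under 0.05. The difference from blood was 1 gene, 0 with the deposited names and 0 to 2 without a neutrophil library. In limma voom it was 0, with 590 genes at an unadjusted p under 0.05, and 0 with 656 when series and animal numbers were a block (estimated correlation 0.0843). The difference from monocytes was 0 in both, with 1299 and 1285 (correlation -0.0212); these fits were chosen after seeing the data. The series comparison, added after the data were seen, gave 5208 genes, 1087 without IVIG 1 to 4589 without PBS 2, and 0 in the 8 libraries without Y-linked transcripts; the cause was not tested. Of the named genes' and lists' changes with IVIG, 2755 and 707 stayed within 1 SE of the reported value over the alternatives (for lists, the members' median SE) and 256 and 13 moved further, some across 0. In the series comparison 117 values of named genes lost their call and 14 gained one, with the direction kept. No paired analysis was possible because, for IVIG against PBS within neutrophils, replicate numbers follow the order of accessions and no pair of series and animal numbers occurs in both treatments. Depth limits genes under 1 CPM, where the median interval reached 1.01 to either side.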
